A study of Mus musculus with 9 samples.

Results

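Trp53 is the mouse gene for p53, and it is 1 of the 2 genes that carry floxed alleles in the mice of this series. Its copy number was followed through the array probes in a window placed on the gene by position. These were all 9 probes between 69393000 and 69406000 of chromosome 11, out of 963261 distinct probes on the array. The other 113 probes between 69300000 and 69500000 served as flanks. The deposited files name no genome build and pair no probe with a gene name, and the window takes the mm9 position of Trp53. Gene symbols of the p53 pathway could therefore not be tied to probes, and no such gene is described. In the order of the RefSeq table of GRCm38.p6, Trp53 lies on the plus strand between Wrap53, which starts next to it on the minus strand and encodes a protein of Cajal bodies and telomerase, and Atp1b2, which encodes a subunit of the sodium-potassium pump. Exons and introns were not assigned to the probes, since no annotation of the files' build was used here. For the same reason it was not checked whether the outermost probes of the window lie inside the gene.

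p53 is a transcription factor that is stabilised by DNA damage and oncogenic stress and that switches on genes for cell-cycle arrest, DNA repair and apoptosis. A floxed allele holds a pair of loxP sites around part of the gene, and Cre recombinase cuts out the DNA between them while the neighbouring DNA stays in place. Loss of p53 in mammary epithelium is a common route to mammary tumours in mice and is frequent in human breast cancer of the basal-like type. On a copy number array, an excised stretch shows as a short run of low ratios between flanks at the level of the chromosome.

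Genomic DNA of 9 mammary tumours from Rb f/f;p53 f/f mice of mixed strain background was labelled with Cy5. Each was hybridised with Cy3-labelled tail DNA, pooled from mice of the same mixed background that bore no tumour, on 1 array per tumour. In 7 tumours Cre came from MMTV-Cre, whose promoter is active in mammary epithelium, and in 2 from Ad-Cre, an adenovirus that carries Cre under the CMV promoter. By the labels, 1 MMTV-Cre tumour arose in a nulliparous and 1 in a parous mouse, the other 5 were transplant tumours, and so were the Ad-Cre pair. All 9 thus share the floxed Rb and p53 alleles, and none is labelled as lacking p53 alone. The labels name neither the floxed p53 allele, nor the ages of the mice, nor the donors and hosts of the transplants. Transplants are numbered here in the order of the samples, since the labels give no replicate numbers. There was no array of control DNA and no dye swap, so p-values measure the spread between these tumours. In DNA from a whole tumour, fewer cells with a loss and fewer copies lost per cell cannot be told apart.

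The median probe signal was 1068 to 1147 intensity units for the pool and 1067 to 1157 for the tumours, and the noise of single probes was 0.16 to 0.18 on the log2 scale. The file headers give 3 scan days. MMTV-Cre transplants 1 and 2 fell on day 1, MMTV-Cre transplants 3 to 5 on day 2, and the nulliparous, parous and Ad-Cre tumours on day 3. At Trp53, 1 array went against its label. The tumour DNA is labelled as Rb and p53 deleted, yet the library labelled MMTV-Cre transplant 2 showed near-full signal across the gene, and results that rest on it are given with and without it.

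Trp53 carried a run of 4 neighbouring probes with low tumour signal, while the probes at its ends stayed near the level of the flanks. Values are log2 ratios of tumour over pool, with the autosomal median of each array set to 0. Counted along the chromosome, probe 4 (69397121 to 69397180) had a mean of -0.998 ± 0.61 (SD, n = 9), probe 5 (69398736 to 69398795) -1.44 ± 0.58, probe 6 (69400540 to 69400597) -0.97 ± 0.41 and probe 7 (69402507 to 69402566) -1.27 ± 0.56. In each of these 4 probes the highest of the 9 values belonged to the library labelled MMTV-Cre transplant 2. With it left out, the means of probes 4 to 7 were -1.16 ± 0.41, -1.59 ± 0.36, -1.08 ± 0.27 and -1.42 ± 0.36 (SD, n = 8). At probe 5, the lowest on average, the ratio was -1.61 for the nulliparous and -1.81 for the parous tumour, -1.96, -0.18, -1.83, -1.65 and -1.01 for MMTV-Cre transplants 1 to 5, and -1.79 and -1.08 for the Ad-Cre pair. So 8 tumours were at -1.01 or below and 1 was near 0, and the Ad-Cre values fell inside the range of the MMTV-Cre transplants. At probe 4 it was -1.21 for the nulliparous and -1.62 for the parous tumour, -1.49, 0.27, -1.38, -1.22 and -0.73 for MMTV-Cre transplants 1 to 5, and -1.22 and -0.39 for the Ad-Cre pair. Ad-Cre transplant 2 was the weakest of the 8 low tumours at probe 4, and the library labelled MMTV-Cre transplant 2 was above 0.

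The low ratios came from the tumour channel. At probe 5 the pool signal was 478, 529 and 547 intensity units (lowest, median and highest of 9 arrays) and the tumour signal 124, 164 and 487, the last in the library labelled MMTV-Cre transplant 2. At probe 7 the pool gave 1363, 1441 and 1479 and the tumours 422, 517 and 1370. At probe 4 the pool gave 1856, 1947 and 2020 and the tumours 636, 862 and 2334. The pool signal thus varied little from array to array, while the tumour signal spread over a several-fold range with the same library at its top. All 9 probes were well above background in both channels on 9 of 9 arrays, and no spot was saturated. The weakest tumour signal, at probe 5, was still 2.61 times its local background.

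**Figure D1:**
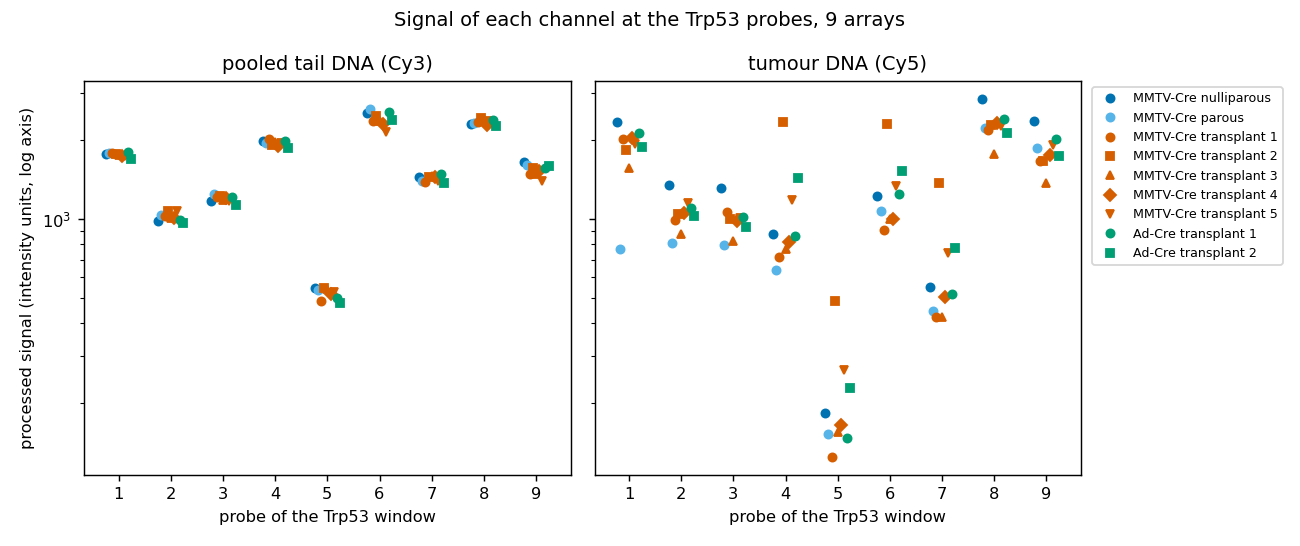
Processed signal in intensity units on a log axis at each of the 9 Trp53 probes, for the pool (left) and the tumours (right), with 1 point per array. The pool points of a probe lie close together, whereas the tumour points of probes 4 to 7 drop on 8 arrays and the library labelled MMTV-Cre transplant 2 stays at the top.

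Before the run, probe 1 (69393005 to 69393063) averaged -0.01 ± 0.48 (SD, n = 9) and probe 2 (69394002 to 69394047) 0.01 ± 0.22. Probe 3 (69395366 to 69395425) was a little low, at -0.29 ± 0.22. After the run, probe 8 (69404685 to 69404744) averaged -0.06 ± 0.20 and probe 9 (69405672 to 69405725) 0.21 ± 0.20. Relative to the flanks of the same array, probe 3 was low in 9 of 9 tumours, between -0.75 and -0.22, and here the library labelled MMTV-Cre transplant 2 (-0.31) lay among the others. Probe 9 was above its flanks in 9 of 9, between 0.07 and 0.31. The shallow departures of probes 3 and 9 were thus shared by all arrays, unlike the run. The nearest probes outside the window averaged 0.19 and 0.09 before it (starting at 69390031 and 69390992) and 0.08 and 0.14 after it (69407547 and 69410300).

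In limma over 912257 autosomal probes with Benjamini-Hochberg adjustment, probes 3 to 7 of Trp53 were lower than the pool and probe 9 was higher. The adjusted p was 3.3e-06 for probe 5, 7.3e-06 for probe 6, 7.9e-06 for probe 7, 1.3e-04 for probe 4, 0.0022 for probe 3 and 0.0095 for probe 9. It was 0.949, 0.880 and 0.401 for probes 1, 2 and 8. So 5 of 9 Trp53 probes were called lower and 1 higher. Over the autosomes 24.1% of probes were called lower and 23.3% higher, so a call alone says little about a probe of Trp53. Each leave-one-out fit gave the same count of 5 lower and 1 higher.

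**Figure D2:**
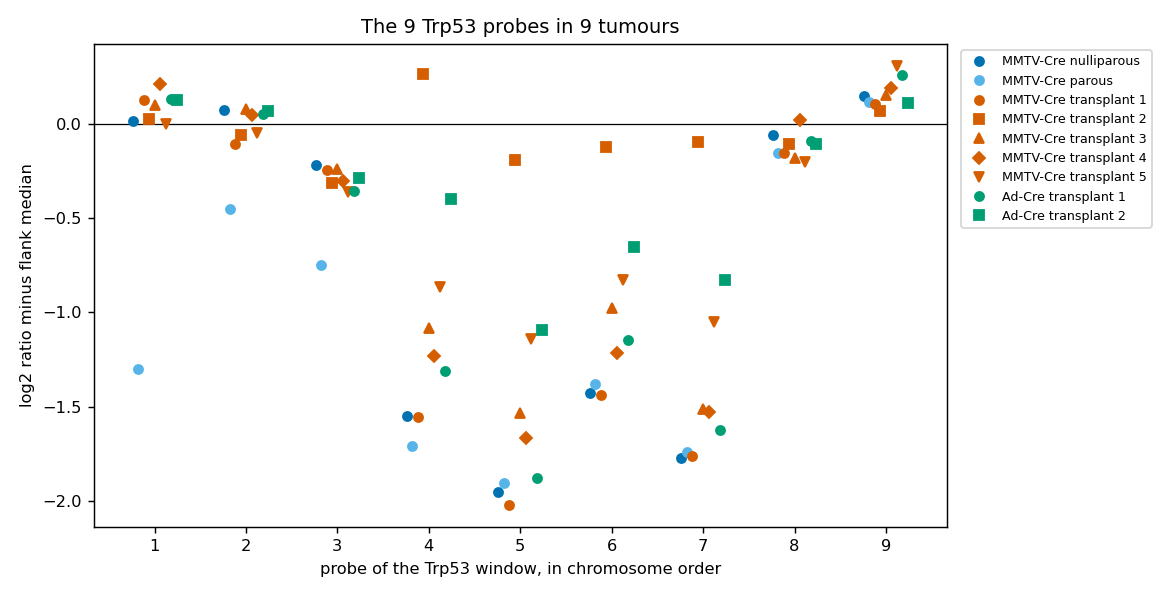
Log2 ratio of tumour over pool minus the flank median of the same array (vertical axis) at the 9 Trp53 probes in chromosome order (horizontal axis), with 1 point per tumour. Probes 4 to 7 are low in 8 tumours and near 0 or above in the library labelled MMTV-Cre transplant 2, and the parous tumour alone is also low at probe 1.

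To set the gene against its surroundings, the mean of the 9 Trp53 probes was compared with the median of the 113 flank probes of the same array. This local difference was -0.75 for the nulliparous and -1.03 for the parous tumour, -0.78, -0.06, -0.58, -0.61 and -0.47 for MMTV-Cre transplants 1 to 5, and -0.66 and -0.34 for the Ad-Cre pair. Trp53 lay below its flanks in 9 of 9 tumours, by as little as 0.06 in the library labelled MMTV-Cre transplant 2. Over all tumours the local difference was -0.59 ± 0.28 (SD, n = 9), or 67.8% ± 13.6 of the flank signal (mean of the per-tumour percentages). Leaving out the library that kept its signal gave -0.65 ± 0.21 (SD, n = 8), or 64.2% ± 9.17, and leaving out the parous tumour -0.53 ± 0.24 (n = 8). By exact two-sided sign-flip permutation p was 0.0039, the smallest that 512 sign patterns allow. In limma over 126595 autosomal windows of 13 kb the Trp53 window had an SE of 0.077 and an adjusted p of 4.8e-05, and of 9.1e-06 without that library.

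The call by itself was common, and the size was not. Of all windows 38.1% were called lower than their flanks, and 25.5% lay below them in 9 of 9 tumours. The median window mean was -0.01. Trp53 had the 19th lowest mean of the 126595 windows, and 38 windows had a mean of -0.5 or lower. Without the library that kept its Trp53 signal it ranked 14th. Trp53 also varied more between tumours than most windows did, with an SD of 0.28 against a median SD of 0.04, and 0.559% of windows had an SD as large. Without that library its SD was 0.21, which 1.013% of windows reached. In single arrays, windows as low as Trp53 or lower made up 0.0656% for the nulliparous and 0.0197% for the parous tumour, and 0.0221%, 0.0166%, 0.0292% and 0.0735% for MMTV-Cre transplants 1, 3, 4 and 5. The shares were 0.0087% and 0.292% for the Ad-Cre pair. For the library labelled MMTV-Cre transplant 2 the share was 31.0%, so there Trp53 was an ordinary window.

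The median of the 9 probes in place of their mean gave a local difference of -0.38, with an adjusted limma p of 0.0030. Within scan days the mean local difference was -0.42 on day 1 (n = 2), -0.55 on day 2 (n = 3) and -0.70 on day 3 (n = 4). On day 1, where the library labelled MMTV-Cre transplant 2 is 1 of 2 arrays, the limma call was lost (adjusted p = 0.146).

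**Figure D3:**
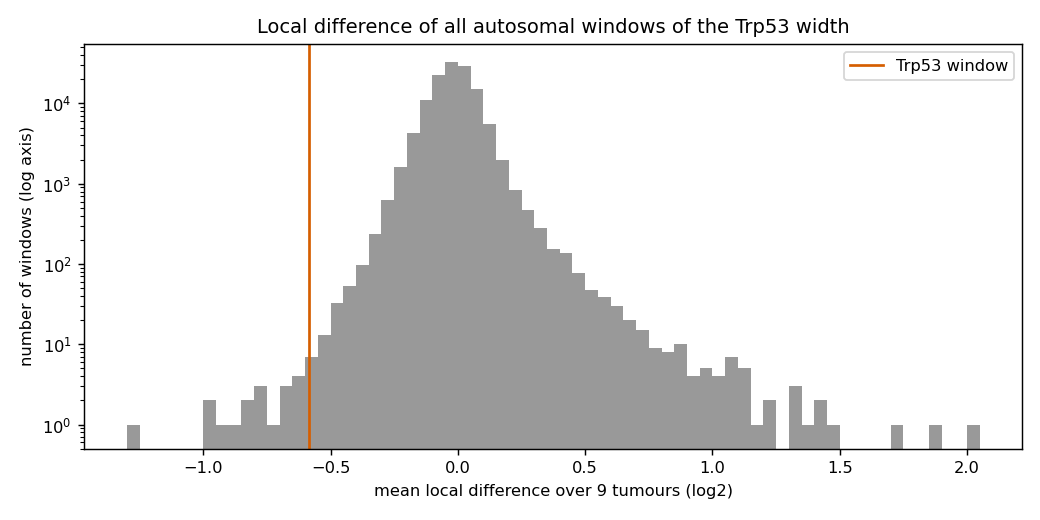
Number of autosomal windows of 13 kb (log axis) by their mean local difference over the 9 tumours on the log2 scale, with the Trp53 window as a vertical line. Trp53, at -0.59, lies in the thin left tail, where 38 of 126595 windows reach -0.5 or lower.

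The level of the chromosome around Trp53 differed from tumour to tumour. The flank median was 0.34 for the nulliparous and 0.09 for the parous tumour, 0.06, 0.01, -0.30, 0.01 and 0.14 for MMTV-Cre transplants 1 to 5, and 0.09 and 0.01 for the Ad-Cre pair. The nulliparous tumour was thus highest and MMTV-Cre transplant 3 lowest, with the rest between 0.01 and 0.14. The mean of 0.05 ± 0.17 (SD, n = 9) did not pass an exact two-sided sign-flip permutation (p = 0.387), nor did 0.06 ± 0.18 (n = 8) without the library that kept its Trp53 signal (exact p = 0.398). MMTV-Cre transplant 3 was the only tumour with a flank below 0. Without it the mean was 0.095 and the flanks were above 0 in 8 of 8 tumours. The exact sign-flip p was then 0.0078, the smallest that 8 tumours allow. It follows from leaving out the only negative value, so no conclusion is drawn from it. With mode centring the mean over all 9 tumours was 0.021 (exact sign-flip p = 0.648). In MMTV-Cre transplant 3 the median of all chromosome 11 was also -0.30, so the flank there lay at the median level of its chromosome. The flank of the nulliparous tumour stood 0.19 above its chromosome 11 median of 0.15, and in the other 8 tumours the flank was 0.00 to 0.06 above that median.

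The signal left in the run varied from tumour to tumour. The run was picked on these values, so its depth is given as a description with no test. Signal of probes 4 to 7 relative to the flanks was 30.9% for MMTV-Cre transplant 1, 31.2% for the parous and 31.3% for the nulliparous tumour. Ad-Cre transplant 1 followed at 35.6% and MMTV-Cre transplant 4 at 37.6%. MMTV-Cre transplant 3 had 41.3%, MMTV-Cre transplant 5 51.0%, Ad-Cre transplant 2 59.7%, and last, at 97.6%, came the library labelled MMTV-Cre transplant 2. Each value comes from 1 array and the spread between arrays of 1 tumour was not measured, so it cannot be said which neighbours in this order differ. The mean log2 difference from the flanks was -1.22 ± 0.55 (SD, n = 9), and -1.37 ± 0.35 (n = 8) with the library labelled MMTV-Cre transplant 2 left out. In 8 of 9 tumours the 4 probes kept 1 pattern, with probe 5 lowest and probe 7 next.

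**Figure D4:**
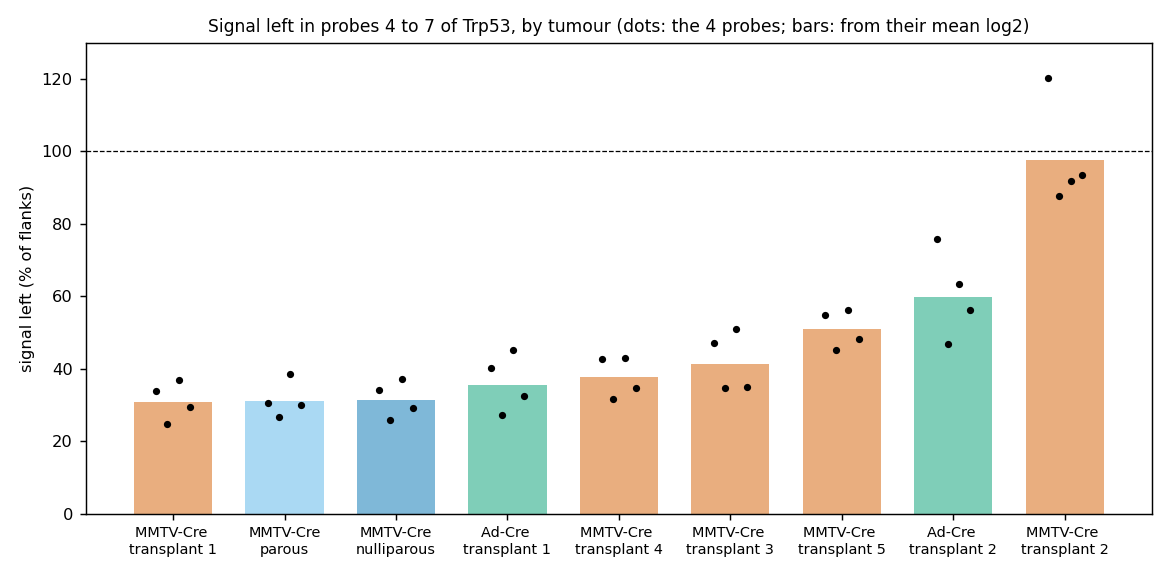
Signal left in probes 4 to 7 of Trp53 as percent of the flanks, by tumour in rising order; bars come from the mean log2 difference of the 4 probes and dots are the single probes. The bars of 8 tumours lie between 30.9% and 59.7%, and the library labelled MMTV-Cre transplant 2 stands at 97.6%, near the dashed line at 100%.

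The ends of the low stretch were looked for in each tumour alone, as the run of at least 2 neighbouring probes that removed most of the sum of squares within the flanks. In 6 tumours this stretch was the same, from 69397121 to 69402566, which is 5446 bp. They were Ad-Cre transplant 1, the nulliparous tumour and 4 of the 5 MMTV-Cre transplants. The next probes lie 1696 bp before and 2119 bp after it, so each end of the low stretch could be placed only within its gap. Between probes 3 and 8 lie 9260 bp. Ad-Cre transplant 2 gave the last 3 of these probes, from 69398736, with a shift of -0.82. In the library labelled MMTV-Cre transplant 2 the stretch found lay outside Trp53, at 2 flank probes from 69351990 to 69353785.

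The parous tumour had the longest stretch. It ran over 7 probes from 69393005 to 69402566, with a shift of -1.26, and so took in the start of the window. There probe 1 was at -1.21, probe 2 at -0.36 and probe 3 at -0.66, each the lowest of the 9 tumours. Relative to the flanks, the mean of these 3 probes was -0.83 in the parous tumour and -0.14 to -0.01 in the other 8. How often 3 neighbouring autosomal probes reach such a gap in this array was not computed. Probe 1 of the parous tumour differed by -1.38 on the log2 scale from the median of the other 8, a gap that 2010 of 912257 autosomal probes reached in the same array (0.220%). For probes 2 and 3 the shares were 3.87% and 5.26%. The parous tumour was also the lowest relative to the flanks at the nearest 2 probes before the window. It was at -0.01 at 69390031, against 0.08 to 0.22 in the other 8. At 69390992 it was at -0.18, against -0.03 to 0.20. The parous array also had a second low stretch, at the far end of the flank. After the flank median was taken off, 9 of its 113 flank probes differed from the median of the other 8 tumours by -0.35 or less, against 0 to 2 in each other array. All 9 lay among the 13 flank probes from 69477302 to 69497445, with 7 of them next to one another, and the other 100 flank probes held none. The 39 flank probes between Trp53 and this stretch were thus free of such values. The lowest of the 9 was at 69486255, with -0.67. The limit and these probes were chosen after the values had been seen. The share of autosomal probes at or below this limit was not computed. Without the flank median taken off, 5.26% of the autosomal probes of this array differed by -0.386 or less, so such gaps were not rare. The probe noise of the parous array over the autosomes, 0.159, was inside the range of the other 8, from 0.158 to 0.183. After the run the parous tumour was like the rest, at -0.02 for probes 8 and 9 together.

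**Figure D5:**
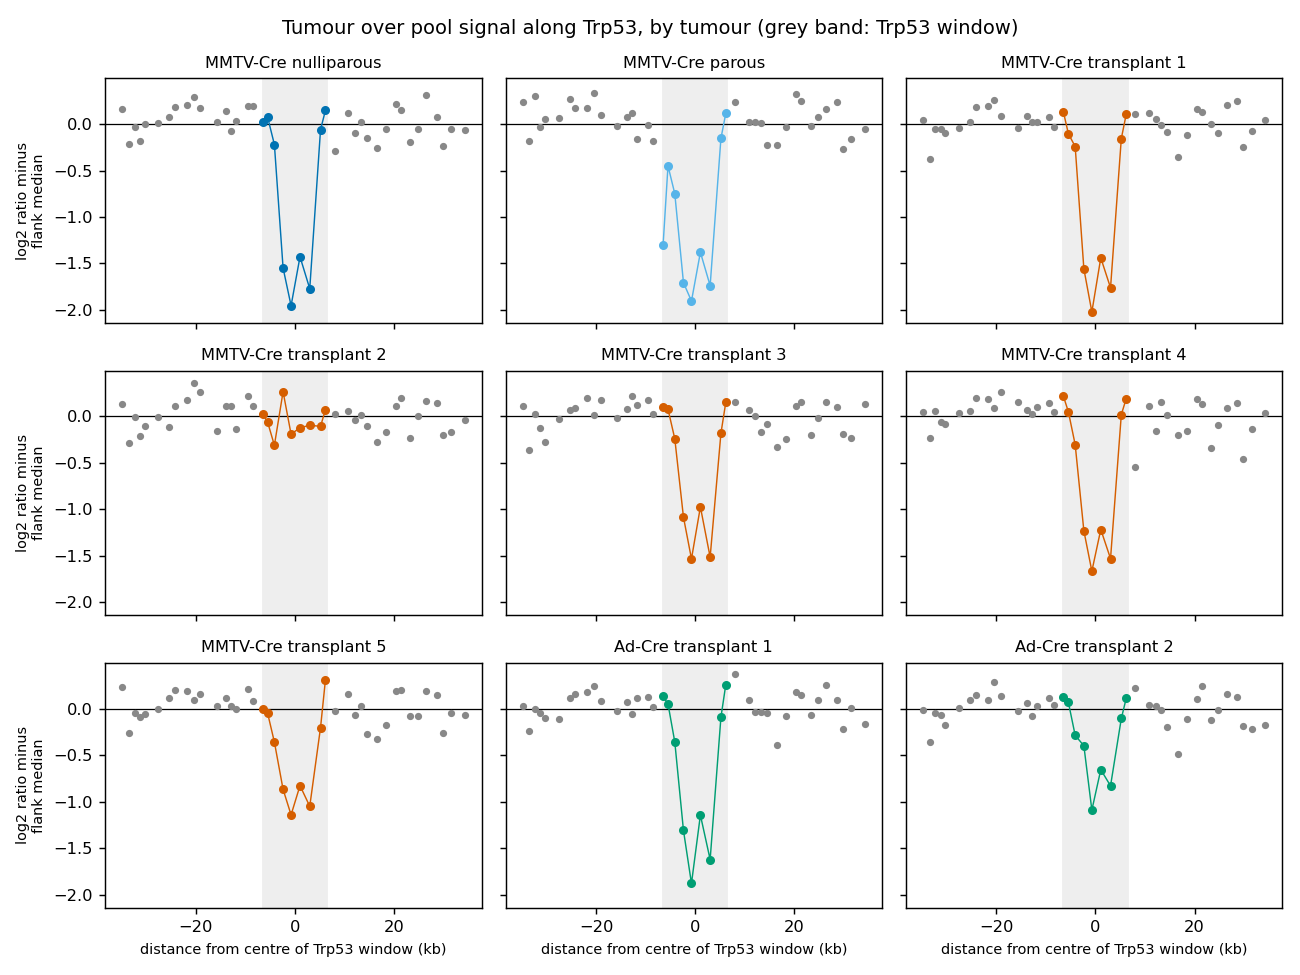
Log2 ratio of tumour over pool minus the flank median (vertical axis) against the distance from the centre of the Trp53 window in kb (horizontal axis), 1 panel per tumour; coloured points are the 9 Trp53 probes, grey points flank probes. The same dip over probes 4 to 7 returns in 8 panels with different depth, the parous panel is low from probe 1 on, and the panel labelled MMTV-Cre transplant 2 has no dip.

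The library labelled MMTV-Cre transplant 2 was not flat elsewhere in the region. Flank probes named here were chosen after their values had been seen. The flank probe that starts at 69341848 was high in this library, at 0.79 relative to the flanks, against -0.06 to 0.14 in the other 8. The flank probe that starts at 69351990 was at -1.99 relative to the flanks in this library and at -0.02 to 0.24 in the other 8. The next probe, from 69353729, was low in 9 of 9 tumours, at -1.66 to -0.97, as was the probe from 69437556, at -0.92 to -0.55. These probes were low in the library that kept its Trp53 signal as well as in the others. The low probes of Trp53 differ from them in that this library stood apart.

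The route of Cre delivery was compared among transplants. The local difference of Trp53 was -0.66 and -0.34 in the Ad-Cre transplants, with a mean of -0.50 ± 0.23 (SD, n = 2), and -0.50 ± 0.27 (n = 5) in the MMTV-Cre transplants. The MMTV-Cre values, from -0.78 to -0.06, enclose both Ad-Cre values. The difference was -0.0025 (limma SE 0.16, 95% interval -0.36 to 0.35, adjusted p = 1.0), and an exact two-sided permutation over 21 groupings, whose smallest p is 0.0476, gave p = 1.0. Of all windows 0.0118% were called in this contrast. With the library labelled MMTV-Cre transplant 2 left out, the MMTV-Cre group had -0.61 ± 0.13 (n = 4) and the difference turned to 0.11 (exact permutation p = 0.467). The MMTV-Cre values then ran from -0.78 to -0.47, so Ad-Cre transplant 2, at -0.34, lay outside them. The interval is wide on both sides of 0, so equal values were not shown. No scan day held both groups, so route and day cannot be told apart.

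Among MMTV-Cre tumours, transplants were compared with the nulliparous and the parous tumour as 1 group. This pair had local differences of -0.75 and -1.03, with a mean of -0.89 ± 0.20 (SD, n = 2), against -0.50 ± 0.27 (n = 5) in the transplants. Transplant 1, at -0.78, lay between the values of that pair, so the groups overlapped. The transplants were higher by 0.39 (limma SE 0.16, 95% interval 0.04 to 0.74), which did not pass adjustment over all windows (adjusted p = 0.228, unadjusted limma p = 0.033) or the exact two-sided permutation (p = 0.190, smallest 0.0476). In this contrast 0.845% of windows were called. Without the parous tumour the difference was 0.25, and without the library that kept its Trp53 signal it was 0.28 (exact permutation p = 0.133). Here too no scan day held both groups, so transplantation and day cannot be told apart.

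Windows with a pattern across tumours like that of Trp53 were sought outside chromosome 11, among the 36 whose mean local difference was -0.5 or lower. The nearest by Pearson correlation over the 9 tumours were chromosome 1 from 128686000 to 128699000 (r = 0.71), chromosome 2 from 57459000 to 57472000 (r = 0.69) and chromosome 2 from 107600000 to 107613000 (r = 0.67). They hold 3 probes each, and all were picked for this likeness on the same arrays. Their spreads were unlike, with SDs over the 9 tumours of 0.15, 0.06 and 0.96 in this order, against 0.28 for Trp53. The lowest value of the last window was -3.17. Over the 8 tumours without the library labelled MMTV-Cre transplant 2, r was 0.83, 0.48 and 0.75 for the same windows. Their values in the library labelled MMTV-Cre transplant 2 were -0.46, -0.47 and -0.26, so none of the 3 came as near to 0 there as Trp53 did, at -0.06.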

How the data were processed

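The Trp53 window, its flanks and the tests were chosen with earlier results of these data known. The deposited processed signals are intensity values, per channel, from which background was subtracted, with spatial detrending and linear dye normalisation in Feature Extraction 10.5.1.1 (array design 027414), per the file headers. The authors also deposited log10 ratios (red over green), which the series table repeats rounded. The build is not given in the sources used here.

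From these, log2 ratios of red (tumour) over green (pool) were computed. Spots flagged as non-uniform or as population outliers in either channel, or not well above background in the pool channel, were left out (1597 to 2115 of 967261 probe spots per array). Repeat spots were averaged and arrays were centred on the autosomal median. The local difference of a window is the mean of its probes minus the median of the probes 93 kb before to 94 kb after it. Windows of 13 kb with at least 3 probes tiled the autosomes in phase with Trp53. Probes were fitted where kept on all arrays. Limma 3.58.1 in R 4.3.3 was used with Benjamini-Hochberg adjustment at 0.05, and exact permutation tests for single values. Nearest windows followed the stated correlation rule, and flank probes were named as the nearest 2 on each side, with the exceptions stated. In simulated windows limma recovered 93% of shifts of -0.25 and 98% of -0.5 for windows against their flanks (7 false calls among 126595), and 93% of -0.5 and 98% of -1.0 for Ad-Cre against MMTV-Cre transplants (4 false calls). Each share is over 100 changed windows. Unchanged simulated windows had normal noise around 0, whereas 38.1% of the real windows were called lower than their flanks. The simulated counts of false calls therefore do not carry over to these data. Trp53 had an SD over tumours of 0.28 against a median window SD of 0.04. Recovery at the spread of Trp53 was not tested separately. The fit over single probes was not simulated. Precision is limited by having 9 arrays. Alternatives were normexp (offset 50) on the median signals, loess (span 0.3), mode centring, the series table, other spot filters, flanks and window summaries, scan day, and each tumour left out. Other steps used numpy 2.4.6, scipy 1.17.1 and pandas 2.3.3 in Python 3.11.15.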

Additional observations from a re-analysis of the deposited data

Results flagged for a closer look

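Whether a single tumour stood far from the others was tested in 28 comparisons of Trp53 values, of which chance alone flags about 1 in 20. Only the flagged ones are given here. They are not independent, since probe 1 is part of the mean of probes 1 to 3. At probe 1 the parous tumour was at -1.21, away from the other 8. The mean of probes 1 to 3 relative to the flanks was -0.83 in the parous tumour, again apart from the other 8. At probe 8 MMTV-Cre transplant 3 was lowest at -0.48, both among all 9 tumours and among the 5 MMTV-Cre transplants. Its chromosome 11 median was -0.30, and relative to its own flanks probe 8 was at -0.18, inside the range of the other tumours.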

How the results depend on the processing

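The Trp53 window stayed below its flanks under every alternative run, between -0.81 (an alternative chosen after seeing the data, which leaves out the 3 probes before the run) and -0.38 (median of the probes), and between -0.65 and -0.53 with each tumour left out. With scan day 1 alone its adjusted limma p was 0.146 at -0.42. Single scan days cannot reach 0.05 in the exact sign-flip permutation (-0.42 with p = 0.5 on day 1, -0.55 with p = 0.25 on day 2, -0.70 with p = 0.125 on day 3). On scan day 1, with 2 arrays, limma called 0 of the 9 Trp53 probes, against 6 in all arrays, and 3 had an unadjusted p under 0.05. The difference of Ad-Cre and MMTV-Cre transplants, near 0, changed sign to 0.011 with 20 probes on each side as flanks, 0.11 against all MMTV-Cre tumours and 0.0012 with scan day as a random block, and ran from -0.16 to 0.16 with each tumour left out, with positive values of 0.16 without Ad-Cre transplant 1, 0.11 without the library labelled MMTV-Cre transplant 2 and 0.0057 without MMTV-Cre transplant 5. The higher value of the MMTV-Cre transplants against the other MMTV-Cre tumours kept its sign and did not pass in any alternative run. The flank mean was -0.050 on scan day 2 and ran from 0.015 to 0.095 with each tumour left out, the last without MMTV-Cre transplant 3 (exact p = 0.0078). The causes of these changes were not tested. No paired analysis was possible because the labels number no replicates and tie no tumours together.

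With 9 arrays, none of them of control DNA, the spread of normal DNA at Trp53 was not measured. The ends of the run are known only to the gaps between probes. The signal left in the run is a value of these arrays and not a count of copies.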
